A study of Ceratopteris richardii with 9 samples.

Results

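A possible ortholog of Arabidopsis SCL28 in the fern Ceratopteris richardii, called SCL28 here, is represented by 1 transcript, transcript45117, of the 28952 transcripts in the count table. It was found in the table by the number the study gave it. The study had already examined its expression in these libraries, so the tests here are not independent evidence of its direction. RNA was sequenced from the root tip (RT), from roots cut free of their tips (the differentiated root, DR) and from the shoot (SH, leaves with the stem) of Hn-n strain sporophytes at 45 days after fertilization, with 3 independent biological replicates per segment and 9 libraries in all. RNA came from pooled shoots, roots or tips of many cultured plants, the tips were cut where vascular strands ceased to be visible, and no treatment or mutation was applied. The transcripts carry numbers without gene names or genome positions, and 0 of the numbers were found in the RefSeq gene table of this species.

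The RT label was compared with a pair of WOX homeobox transcripts that the study numbered and linked to the root tip, with these libraries in view. CriWUL (transcript86941) had 2.54 to 3.75 CPM in the RT, 0.0511 to 0.215 in the SH and 0.184 to 0.406 in the DR (CPM are counts relative to library size, after scaling by TMM, edgeR's trimmed mean of M values). Its RT libraries lay above all others, as for 20.6% of all transcripts. CriWOXA (transcript45206) had 1.48, 4.10 and 6.95 CPM in RT replicates 1 to 3, 1.58 to 2.71 in the SH and 0.147 to 0.554 in the DR, so RT replicate 1 lay below the SH libraries. The study also numbered CriWOXB, which it found differential in these libraries only in the DR, although earlier reports placed it in the root tip too. CriWOXB was not compared here, so the pair is a selected one. No markers of the SH or of the DR were used.

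GRAS proteins are plant transcription regulators. In Arabidopsis, SCL28 is expressed in dividing cells around mitosis and acts on the passage through the G2 phase and mitosis in the root meristem. Its relatives SCARECROW (SCR) and SHORT-ROOT (SHR) act together in the formation of endodermis and cortex in that species. D-type cyclins (CYCD) with their kinases phosphorylate the retinoblastoma-related protein (RBR), which otherwise holds cells before DNA replication. Fern roots grow from a large apical cell at the tip, and cell division is concentrated in and near its derivatives.

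SCL28 was most abundant in the RT, lower in the SH and lowest in the DR. The RT libraries had 499, 935 and 1002 counts of transcript45117 in replicates 1 to 3, or 19.9, 36.5 and 37.2 CPM. The SH libraries had 148, 186 and 196 counts, or 7.57, 8.00 and 8.42 CPM. The DR libraries had 45, 19 and 13 counts, or 1.65, 0.702 and 0.524 CPM. Every RT library lay above every SH library, and every SH library above every DR library, so no neighbours in this order overlapped. Over all transcripts, 7.27% showed this complete order of the libraries, while 20.6% had all RT libraries above the 6 others and 17.8% had all DR libraries below the 6 others.

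**Figure D1:**
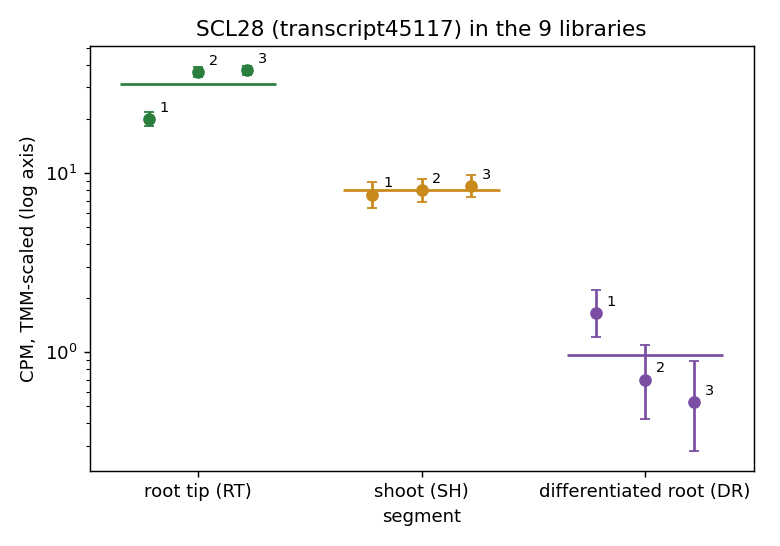
CPM of SCL28 (transcript45117) on a log axis in each library of the RT, SH and DR. Points are libraries numbered by replicate, horizontal lines are segment means, and bars are exact 95% Poisson intervals that cover counting error only. The RT libraries lie between 19.9 and 37.2 CPM, the SH libraries between 7.57 and 8.42 and the DR libraries between 0.524 and 1.65.

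The spread within a segment differed. The SH libraries were close together (7.99 ± 0.428 CPM, SD, n = 3), and the counting intervals of all 3 overlapped. In the RT (31.2 ± 9.78 CPM, SD, n = 3) replicate 1 stood below the others, and its interval of 18.2 to 21.8 CPM did not reach the lower limit of 34.2 CPM in replicate 2. In the DR (0.960 ± 0.607 CPM, SD, n = 3) replicate 1 stood above the others, with an interval of 1.21 to 2.21 CPM against 0.422 to 1.10 in replicate 2 and 0.279 to 0.897 in replicate 3. All 3 DR libraries were above the 0.110 to 0.121 CPM that 3 counts would give there. These intervals cover counting error only and leave out variation between libraries. Reads amplified by PCR are not independent molecules, so the intervals may understate even the counting error.

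Between the RT and the DR, which lie along the same organ, SCL28 differed by 5.01 on the log2 scale (standard error 0.43, 95% interval 4.05 to 5.97, edgeR quasi-likelihood adjusted p = 1.15e-05). It was therefore 32.2-fold higher in the tip, with an interval from 16.6 to 62.5. Of all transcripts, 29.9% exceeded their DR level in the RT at an adjusted p of at most 0.05, and 0.47%, or 136 transcripts, had a fitted increase at least as large as that of SCL28. The size of the difference rested in part on DR replicate 1, and without it the difference was 5.65 on the log2 scale.

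Between the RT and the SH the difference was smaller. The RT exceeded the SH in SCL28 by 1.96 on the log2 scale (standard error 0.36, 95% interval 1.15 to 2.78, adjusted p = 0.00111), a 3.90-fold difference with an interval from 2.22 to 6.85. Of all transcripts 29.9% were called in this direction, and 10.4% had an increase at least as large. In bulk tissue a smaller share of cells that express SCL28 and less SCL28 RNA per cell cannot be told apart.

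The SH also exceeded the DR, by 3.04 on the log2 scale (standard error 0.40, 95% interval 2.14 to 3.95, adjusted p = 0.000155), an 8.25-fold difference. This direction was shared by 30.8% of transcripts, and 4.97% differed at least as far. Without DR replicate 1 the difference was 3.69. The 3 pairwise comparisons share libraries, and each of them was past 0.05 for SCL28.

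Set against the mean of the other segments on the log2 scale, the RT level of SCL28 was higher by 3.49 (adjusted p = 1.12e-05, 30.3% of transcripts called in this direction) and lower in the DR, with a log2 fold change of -4.03 (adjusted p = 2.42e-05, 31.5% of transcripts called lower). Without DR replicate 1 the log2 fold change in the DR was -4.67. The SH value of 0.54 (95% interval -0.16 to 1.24, adjusted p = 0.167) did not pass 0.05, while 28.7% of transcripts were called higher in that comparison. Without DR replicate 1 this value was 0.86 (adjusted p = 0.0117).

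The mean TMM factor was 0.825 in the SH, 1.11 in the RT and 1.10 in the DR. With library size alone the median of all transcripts moved from 0.11 to 0.54 on the log2 scale between the RT and the SH, and the SCL28 difference moved with it from 1.96 to 2.36, while its difference between the SH and the DR moved from 3.04 to 2.64. Relative to the median the RT and SH difference was 1.85 with TMM and 1.82 with library size.

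The deposited estimates for transcript45117 were exact whole numbers in all 9 libraries, as for 63.4% of transcripts. The program kallisto divides reads that fit several transcripts and then usually gives fractions, and here none were given for SCL28.

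SCL28 was set beside 10 transcripts. The 6 CYCD, RBR1 and RBR2 are possible orthologs of cell division genes. SCR and SHR are possible orthologs of GRAS genes tied to ground tissue in Arabidopsis. Their roles in the fern were not tested. The 10 transcripts do not include every CYCD of the study and were named with results of these libraries known. At an adjusted p of at most 0.05, 9 of the 10 exceeded their DR level in the RT (29.9% of all transcripts), 5 exceeded their SH level there (29.9%) and 7 were higher in the SH than in the DR (30.8%). With library size alone, transcript77150 (adjusted p = 0.0789) and RBR1 (adjusted p = 0.0638) were no longer called between the SH and the DR. SCL28 was higher in all 3 comparisons. RBR2 (transcript83572) and the CYCD transcript68372 were the other transcripts of this group with the same 3 calls. The share of all transcripts with these 3 calls together was not computed, so no distinction is drawn from them. By a related rule, the complete order of the libraries from the RT over the SH to the DR, the share was 7.27%.

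D-type cyclins are regulatory subunits of kinases that act before DNA replication. All 6 listed CYCD transcripts passed the test as higher in the RT against the DR (29.9% of all transcripts). Their log2 differences ranged from 1.42 (transcript77150) to 4.38 (transcript68372), against 5.01 for SCL28. Of the 6, transcript68372 and transcript42446 were the ones that differed past 0.05 between the RT and the SH. In that comparison 29.9% of all transcripts were called higher in the RT. The CYCD transcript68372 had 68.9, 74.0 and 92.9 CPM in RT libraries, 12.3, 15.0 and 15.0 in SH libraries and 5.69, 3.32 and 2.26 in DR libraries. Its segments did not overlap and stood in the same order as those of SCL28. Between the RT and the SH it differed by 2.48 on the log2 scale (adjusted p = 6.37e-05). The CYCD transcript42446 departed from this order, with 168, 291 and 234 counts in RT libraries, 29, 14 and 6 in DR libraries and 0, 1 and 0 in SH libraries. It was called lower in the SH than in the DR. Its ratio of RT to SH over the libraries was 590, with an exact 95% interval from 106 to 23356 for counting error only.

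For the 4 CYCD transcripts that did not pass 0.05 between the RT and the SH, the intervals of the log2 difference were -0.20 to 0.73 (transcript68371), -0.07 to 1.05 (transcript44715), -0.15 to 1.36 (transcript48787) and -0.58 to 0.96 (transcript77150). All 4 intervals lay below the SCL28 estimate of 1.96, although those of transcript48787 and SCL28 overlapped. With library size alone 3 of them, transcript68371, transcript44715 and transcript48787, passed 0.05. The same was true of transcript44715 without DR replicate 1 (adjusted p = 0.0273) and with the RT and SH alone in the fit (adjusted p = 0.0338).

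RBR2, a retinoblastoma-related protein of one of the fern clades, had 24.0, 20.8 and 24.7 CPM in RT libraries, 9.41, 11.4 and 10.8 in SH libraries and 2.64, 2.84 and 2.02 in DR libraries. The segments stood in the same order as for SCL28, with smaller estimated differences: 3.21 between the RT and the DR, 1.14 between the RT and the SH and 2.07 between the SH and the DR on the log2 scale. RBR1 (transcript30597) differed by 0.84 between the SH and the DR (adjusted p = 0.000611) and by 0.63 between the RT and the DR, and its difference of -0.20 between the RT and the SH was not past 0.05 (95% interval -0.51 to 0.10) and was 0.23 with library size alone.

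Of the 2 GRAS relatives, SCR did not follow the order of SCL28. SHR had the same order of means, at 11.3 CPM in the RT, 4.41 in the SH and 3.38 in the DR, but its SH and DR libraries overlapped. SCR (transcript23688), with 33.4 to 46.4 CPM in the RT and 31.4 to 43.2 in the DR, overlapped between the root segments (log2 difference 0.12, 95% interval -0.32 to 0.57). It was called lower in the SH than in either root segment, but the call against the RT was lost without SH replicate 2 (adjusted p = 0.0661) or RT replicate 1 (adjusted p = 0.0602), and the call against the DR without any of SH replicates 1 to 3 and DR replicates 2 and 3 (adjusted p from 0.0519 to 0.175). SHR (transcript116363) had log2 differences of 1.74 from the DR to the RT and 1.36 from the SH to the RT, both past 0.05. Between the SH and the DR its difference of 0.38 was not past 0.05 (95% interval -0.43 to 1.19) and was -0.017 with library size alone. Of these 3 GRAS transcripts, only SCL28 was higher in the SH than in the DR at an adjusted p of at most 0.05. This call was shared by 30.8% of all transcripts, so it draws no distinction for SCL28.

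**Figure D2:**
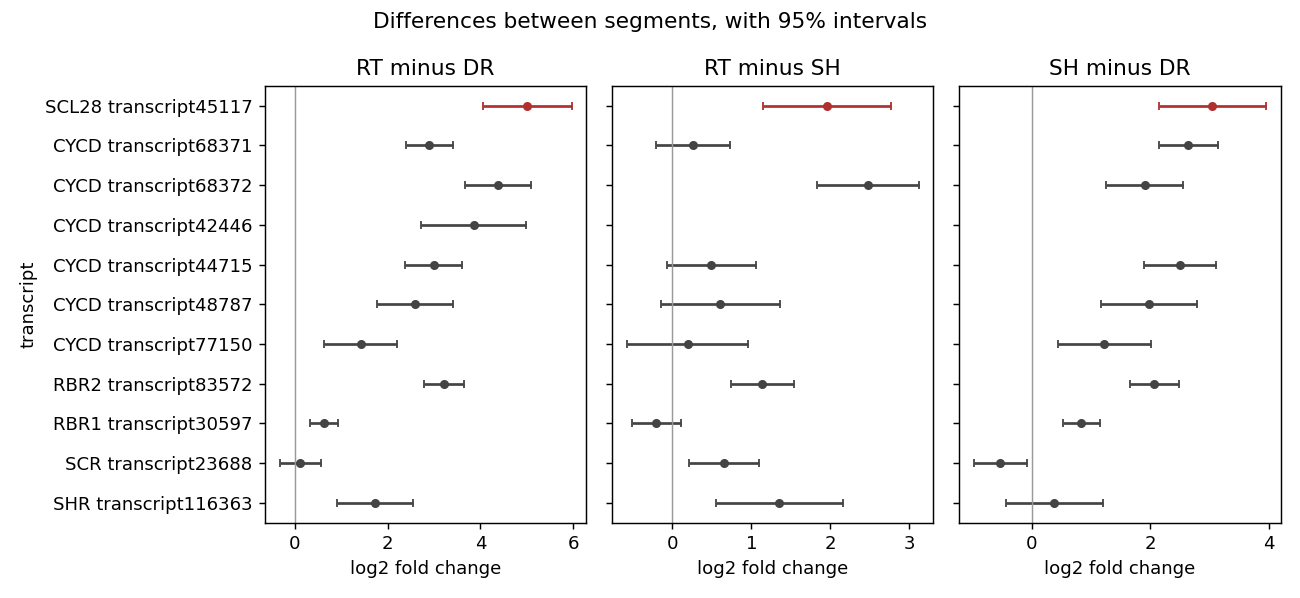
Log2 fold changes (x axes) of SCL28 and of 10 CYCD, RBR, SCR and SHR transcripts (y axis) for RT minus DR, RT minus SH and SH minus DR, with 95% intervals from edgeR. SCL28 lies at 5.01, 1.96 and 3.04. Points for transcript42446 are left out where the SH is involved, because its SH libraries hold 1 count in all.

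To compare SCL28 with each of these transcripts free of the scaling between libraries, its counts were divided by theirs within each library, with 0.5 added to both. The level of such a ratio depends on transcript lengths, and only its change between segments is read. For RBR2 the log2 ratio was -0.27, 0.81 and 0.59 in RT libraries, -0.31, -0.50 and -0.36 in SH libraries and -0.67, -1.99 and -1.90 in DR libraries. Every RT value lay above every SH value, and every SH value above every DR value. Over all transcripts, 72.2% had every RT ratio above every SH ratio, and 87.4% every SH ratio above every DR ratio. The segments differed in an exact permutation test over the 280 divisions of the 9 libraries (p = 0.00357, the smallest p it can give, and 0.00510 adjusted over the 10 ratios). In the same test 97.7% of all transcripts had a p of at most 0.05, so it does not set RBR2 apart.

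All 10 ratios differed between segments at an adjusted p of at most 0.025 in the same exact test, but 97.7% of all transcripts had an exact permutation p of at most 0.05 for their ratio to SCL28, so this count is at the background. The ratio to transcript48787 stayed past 0.05 in 2 of the 9 tests with a library left out, without DR replicate 1 and without RT replicate 1, and its adjusted p reached 0.075. Relative to 9 of the 10 transcripts, SCL28 was higher in every RT library than in every DR library, which was true of 97.3% of all transcripts. The exception was transcript68372, with log2 ratios of -1.79 to -1.02 in the RT and -2.21 to -1.77 in the DR. Relative to 7 of the 10, SCL28 was higher in every RT library than in every SH library (72.2% of all transcripts). Relative to the CYCD transcripts transcript68372 and transcript42446 it was lower in every RT library than in every SH library. Relative to 8 of the 10, it was higher in every SH library than in every DR library (87.4%). These counts are read against the shares of all transcripts beside them, and draw no distinction for the 10.

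**Figure D3:**
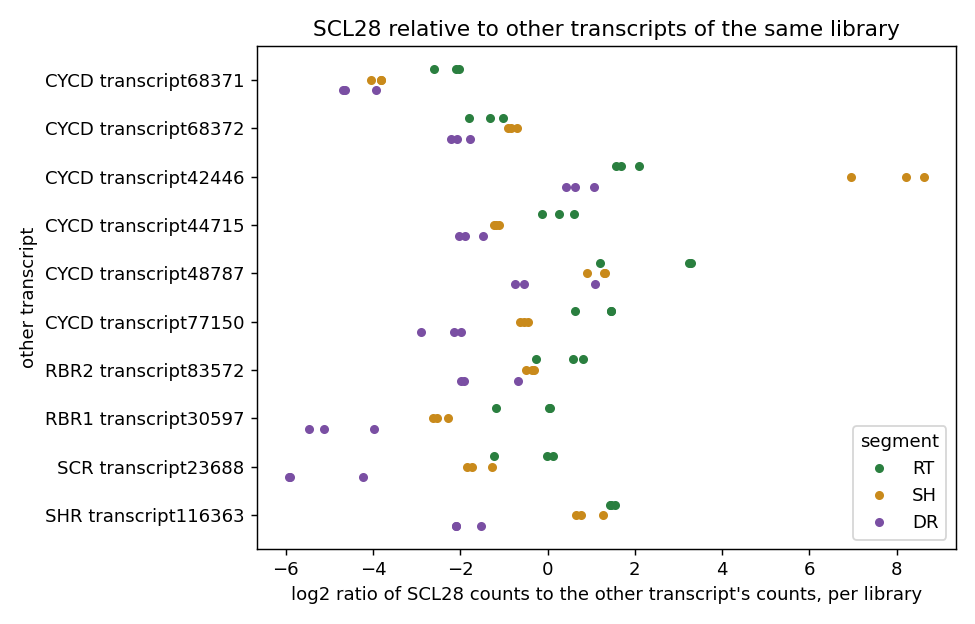
Log2 ratio of SCL28 counts to the counts of each of 10 other transcripts in the same library (x axis), for the RT, SH and DR libraries. The points for RBR2 run from -1.99 in the DR to 0.81 in the RT, and the SH points of transcript42446 rest on 1 count in all.

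In some libraries, SCL28 and part of these transcripts stood on the same side of the other libraries of the segment. In DR replicate 1, SCL28 stood 0.96 above the mean of the other DR libraries on log2(CPM + 0.5), and 8 of the 10 transcripts stood above as well, among them transcript77150 by 1.01 and transcript68372 by 0.93. RBR2 stood 0.12 above. Of all transcripts with a mean of at least 1 CPM, 4.36% were at least as far above in that library. In RT replicate 1, SCL28 stood below the other RT libraries, at -0.87, a distance that 3.04% of transcripts reached on that side. Of the 10 transcripts, 6 stood below as well, from -0.061 for transcript77150 to -0.94 for SHR, and 4 stood above, RBR2 by 0.08, RBR1 by 0.32, SCR by 0.38 and transcript48787 by 1.08. In DR replicate 3, SCL28 was at -0.65, and 8.07% of transcripts were at least as far below. All 10 stood below the other DR libraries there, from -0.0092 for transcript48787 to -1.36 for transcript77150. The median of all transcripts was 0.016 in DR replicate 1, -0.066 in RT replicate 1 and -0.028 in DR replicate 3. The share of all transcripts on the same side was not computed. In each library not named here, 5 to 7 of the 10 stood on the side of SCL28. Deviations within a segment are not independent, since each is taken against the other libraries. The ratio of SCL28 to SHR in the RT was 1.48 ± 0.0577 (SD, n = 3) on the log2 scale. This was the smallest RT SD of the 10 ratios, and the others ran from 0.278 (transcript42446) to 1.19 (transcript48787). The SD of the SHR ratio was 0.332 in the DR and 0.334 in the SH, so the RT value was picked from many. The source of the shifts within segments was not tested.

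Transcripts with the most similar pattern were sought over the 9 libraries among the 23293 others with a mean of at least 1 CPM. On log2(CPM + 0.5), 56 of them had a Pearson correlation of at least 0.99 with SCL28 and 885, or 3.80%, at least 0.95. The libraries share 3 segments, so they are a description of the segment pattern and carry no test. The highest were transcript43803 (r = 0.997), transcript94921, transcript94178, transcript61442 and transcript24309 (r = 0.996). Correlation takes no account of the size of the change, and transcript43803 ranged only from 22.4 CPM in the DR over 36.0 in the SH to 49.3 in the RT.

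By Euclidean distance on the same scale, which takes in both the level and the change, the nearest were transcript78245 (0.753), transcript94178 (0.800), transcript38271 (0.953), transcript35662 (0.984) and transcript52899 (1.03). Their RT means ran from 25.6 to 35.5 CPM, their SH means from 6.41 to 9.14 and their DR means from 0.876 to 1.20. Only transcript94178 was in both lists, at 14.0 to 33.5 CPM in the RT, 5.78 to 7.05 in the SH and 0.591 to 1.43 in the DR. None of these 9 transcripts has a name in the sources used here.

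**Figure D4:**
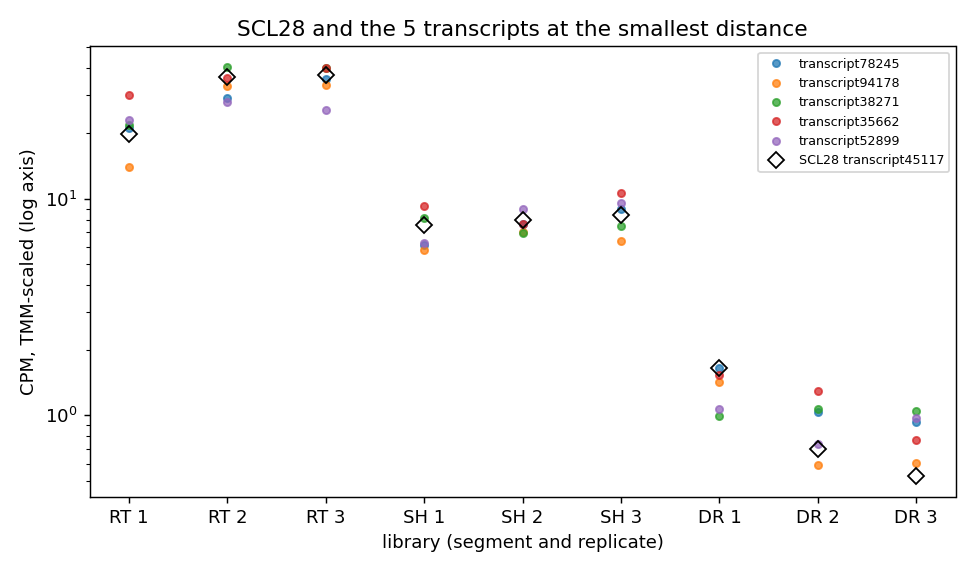
CPM on a log axis of SCL28 (open diamonds) and of the 5 transcripts at the smallest distance from it (coloured points) in the 9 libraries. All 6 lie between 13 and 41 CPM in the RT and below 2 in the DR.

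Among the 10 transcripts, transcript68372 (r = 0.979, rank 249) and RBR2 (r = 0.979, rank 260) were the most alike to SCL28 by correlation, and RBR2 by distance (2.37, rank 141). SCR was at r = 0.00494. RBR1 was at 0.713 and SHR at 0.874. The CYCD transcripts ranged from 0.657 for transcript42446 to 0.979.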

How the data were processed

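The authors trimmed reads with Trimmomatic 0.32, assembled the reads of all libraries with Trinity, clustered the contigs with CD-HIT and Compacta, and quantified with kallisto 0.44.0 (versions from the submitters' notes). The deposited table holds estimated counts per transcript (expected counts), although it is named for TPM, with the DR columns marked DT. Its name also speaks of filtered genes, and the study removed genes with low counts from its assembly. Shares of all transcripts and library totals given here therefore refer to the transcripts in that table. Totals ranged from 20065742 to 27376654 counts per library, and transcripts with few counts have wide relative error.

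Estimates were rounded to whole numbers. edgeR 4.0.16 (R 4.3.3) was fitted to all 28952 transcripts and 9 libraries with TMM factors, a prior count of 0.125 and no further filter, and p-values of its quasi-likelihood test were adjusted by Benjamini-Hochberg over all transcripts. Standard errors are the absolute log2 fold change over the square root of F, and the fit was tested on simulated data. Ratios were compared by exact permutation of libraries. Alternatives were other scalings and filters, limma 3.58.1 voom, DESeq2 1.42.0, 2 segments only, a replicate block and each library left out.

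The transcripts named were SCL28, the 10 listed ones and the 5 most like SCL28 by correlation and by distance. The member and the lists were chosen with earlier results of these data known. CriWOXA and CriWUL were added as a check of the RT after the data were seen. RefSeq sequences and GO terms were not used here. The listed CYCD, RBR, SCR and SHR transcripts are those an earlier account of these libraries gave by number. Every value column belonged to a sample (0 unused).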

Additional observations from a re-analysis of the deposited data

How the results depend on the processing

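The SCL28 differences between the segments, and those of the RT and of the DR from the mean of the other segments, kept their direction and an adjusted p of at most 0.05 in all 93 values computed under the alternatives. The SCL28 difference of the SH from that mean lay between 0.40 and 0.86 with each library left out, and passed 0.05 without DR replicate 1 only. With the other settings it lay between 0.14 and 0.64. Leaving out DR replicate 1 raised the 3 differences that involve the DR most, to 5.65, 3.69 and -4.67 on the log2 scale. With library size alone the RBR1 difference between the RT and the SH turned to 0.23 and the SHR difference between the SH and the DR to -0.017, neither past 0.05. The SCR difference between the RT and the DR ranged from -0.016 to 0.28 with each library left out. SCR between the SH and the DR (-0.53, adjusted p = 0.0443) lost its call in 5 of the 9 leave-one-out fits, within -0.63 to -0.37, and in the replicate block (-0.55, adjusted p = 0.0686). With library size alone transcript77150 (0.81) and RBR1 (0.43) lost their calls between the SH and the DR. The SCL28 ratio to transcript42446 moved with the pseudocount, from -7.84 to -5.35 between the RT and the SH. The causes were not tested. Background counts stayed within 1.5 times.

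No pairing of the libraries by replicate number was seen in deviations from the segment means. Same-numbered libraries of different segments had correlations from -0.41 to 0.13, against -0.26 to 0.38 for different numbers. Of the 9 libraries, 1 correlated best with its own number. With 3 libraries per segment, this cannot exclude that same-numbered libraries share plants or handling. With the replicate block the SCL28 difference between the RT and the DR was 5.03 (adjusted p = 0.000196), between the RT and the SH 1.97 (0.00538) and between the SH and the DR 3.06 (0.00126), and transcripts higher in the RT than in the DR went from 8669 to 8172. Of the 5 transcripts nearest by distance, at least 3 were kept in every alternative, but of the 5 by correlation 0 were kept with Spearman correlation, 1 without SH replicate 1 or DR replicate 1 and 2 without DR replicate 2 or 3. For SCL28 in the DR, at 13 to 45 counts, depth limits the size of the fold change.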
